A study of Mus musculus with 2 samples.

Results

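The genes described here are the Wnt ligands, their receptors and their modulators, 45 of the 20140 genes measured in cells of the mouse submandibular gland stroma after duct ligation or a mock operation. They were matched by gene name. By role they are 13 Wnt ligands, 2 R-spondins, 7 secreted antagonists, 14 receptors and co-receptors, 2 membrane ubiquitin ligases, 3 cytoplasmic components and 4 transcription factors.

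Both groups were female C57BL6/J mice, 14 weeks old in the labels. In the ligated group a metal clip on the excretory ducts of both gland types, submandibular and sublingual, stayed on for 14 days. In the mock group the ducts were located without a clip, and the glands were taken after 14 days of healing. Each group gave 1 droplet single-cell library from 2 glands, and the labels do not say whether both glands came from 1 animal. Before loading, cells bearing EpCAM (an epithelial surface protein) or Ter119 (a red cell surface protein) were depleted with magnetic beads, so epithelium and erythrocytes are what the depletion left. With 1 library per group there is no replicate spread and no difference below has a test, and an effect of ligation cannot be told apart from a difference between 2 libraries.

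Wnt proteins are secreted, lipid-modified ligands that bind Frizzled receptors together with the co-receptors Lrp5 and Lrp6. In the canonical branch this binding stops a destruction complex built on Axin from degrading beta-catenin, which then enters the nucleus and works with transcription factors of the Tcf and Lef family. R-spondins amplify the signal by removing the membrane ligases Rnf43 and Znrf3, which otherwise clear Frizzled from the surface, while Sfrp, Dkk and Wif proteins are secreted modulators, most of them inhibitors. In salivary glands, Wnt signalling between mesenchyme and epithelium is known from branching development and duct regeneration.

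The promoter sequences of 5 members are shown because Rspo1 and Fzd4 were lower in the ligated fibroblast-like cells, Wnt9a and Axin2 had larger ligated than mock values there without reaching the size rule given below, and the Wnt11 window holds a Tcf/Lef motif. Each is the 250 bases before the gene's RefSeq start in build GRCm38.p6, written 5′ to 3′ on the gene's strand. All 5 genes lie on the plus strand. The windows are chr4:124986180-124986429 for Rspo1, chr7:89404116-89404365 for Fzd4, chr11:59306680-59306929 for Wnt9a, chr11:108920099-108920348 for Axin2 and chr7:98834862-98835111 for Wnt11. Capitals mark the only match to the motif searched.
Rspo1: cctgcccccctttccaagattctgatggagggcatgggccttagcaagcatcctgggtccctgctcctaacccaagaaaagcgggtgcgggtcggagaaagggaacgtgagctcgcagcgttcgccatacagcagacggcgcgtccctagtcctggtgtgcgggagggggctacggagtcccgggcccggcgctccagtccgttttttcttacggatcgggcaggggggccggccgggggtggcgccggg
Fzd4: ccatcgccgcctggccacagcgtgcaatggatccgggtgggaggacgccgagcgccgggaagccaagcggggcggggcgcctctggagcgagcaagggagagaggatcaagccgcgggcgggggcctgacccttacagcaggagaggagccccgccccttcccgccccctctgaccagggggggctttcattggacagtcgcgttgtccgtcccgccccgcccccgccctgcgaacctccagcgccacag
Wnt9a: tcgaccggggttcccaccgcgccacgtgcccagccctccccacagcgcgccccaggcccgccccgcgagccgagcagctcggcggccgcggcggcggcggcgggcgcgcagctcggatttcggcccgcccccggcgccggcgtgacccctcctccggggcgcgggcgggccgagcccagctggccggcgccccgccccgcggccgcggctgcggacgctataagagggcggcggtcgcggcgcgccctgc
Axin2: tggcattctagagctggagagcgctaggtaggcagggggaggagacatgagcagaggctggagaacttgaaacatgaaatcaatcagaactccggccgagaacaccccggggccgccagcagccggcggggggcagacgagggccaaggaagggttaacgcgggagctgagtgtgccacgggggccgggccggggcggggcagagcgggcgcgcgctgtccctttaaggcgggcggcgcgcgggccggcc
Wnt11: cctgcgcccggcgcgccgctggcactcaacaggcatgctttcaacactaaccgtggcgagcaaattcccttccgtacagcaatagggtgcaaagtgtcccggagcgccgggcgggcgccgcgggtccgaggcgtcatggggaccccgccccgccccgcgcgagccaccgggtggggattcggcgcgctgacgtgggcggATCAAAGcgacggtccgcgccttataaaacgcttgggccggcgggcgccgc

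The search used 4 heptamers of the Tcf/Lef type on both strands, each of them CTTTG followed by AA or AT, or by TA or TT, which share their first bases but cannot match at the same position of a strand. The windows of Rspo1, Fzd4, Wnt9a and Axin2 held none of them. The Wnt11 window shown held CTTTGAT on the opposite strand, and the leftmost base of the match as printed lies 51 bases before the start. Another window of Wnt11, not shown, held none of them. A window was given for 31 of the 45 members, 41 windows in all, and 5 of these windows (Fzd7, Lef1, Wnt5b, Wnt11 and Tcf7l2) held a motif, or 12.2%. Among all 32851 windows of that length, 4874 held one, or 14.84%. The member windows were richer in G and C than the rest, with a median of 66.8% against 52.4%, and held a median of 21 CpG pairs against 6. A match is a description of the letters, and no match says only that these letters are not in this window.

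The authors deposited mean values for 12 clusters of all cells and for 5 clusters of a subset named for the Pdgfr genes and Gli1. In each cell a gene's unique molecular identifiers (UMIs) are scaled to a total of 10000, and a value is the mean of that quantity within a cluster. From these means 11406 cells of the ligated library and 4199 of the mock library were recovered, with 1935 and 401 in the subset. Where UMI totals of single cells could be recovered the median total was 6607 for ligated and 6974 for mock cells, a sample that favours deep cells. In the ductal-like cluster it was only 1032 and 1205, so values there rest on fewer UMIs per cell. Clusters were named from marker genes, and a name ending in "-like" says only that. The median marker of other cell types stood at a higher share of its library mean in the ligated than in the mock library in each of the compared clusters, for instance 11.8% against 3.10% in the fibroblast-like cluster. Single marker lists went the other way: acinar markers summed to 0.643 in ligated and 8.32 in mock fibroblast-like cells, and erythroid markers to 1.37 and 26.6 in the endothelial-like cells of the subset. Their part in the results was tried by subtracting that share of the library's mean profile, and those values are given below for the members past the rule in all cells. For each of those members the subtraction took more from the ligated than from the mock value. It could therefore not weaken their lower ligated values, and the subtracted values add no support to them.

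Differences are log2((ligated + 0.1)/(mock + 0.1)), which understates the difference of low genes. A member was counted as higher or lower in a cluster when the larger of its values was at least 0.5 and the difference was at least 1 in size. A cluster was compared if both libraries gave it 50 cells or more, which left 9 clusters of all cells and 3 of the subset. In a cluster mean, fewer cells expressing a gene and less RNA per cell cannot be told apart. Each count of members past this rule in a compared cluster or a whole library is given beside the share of all genes past it. Counts under altered settings and in clusters not compared are given without that share.

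Members were unevenly placed among cell types. In the table with both libraries together, 14 of the 45 reached 0.5 in some cluster of all cells, 20 lay between 0.1 and 0.5 at their highest, and 11 stayed under 0.1 everywhere. The fibroblast-like cluster (1337 cells, with all 11 fibroblast markers highest there) was the highest cluster for 18 members. The Schwann-like cluster was highest for 7, the endothelial-like cluster for 5, the natural killer-like cluster for 4, and no member was highest in the macrophage-like, erythroid-like or cycling and neutrophil clusters. Of the 14 members that reached 0.5, 6 were highest in the fibroblast-like, 3 in the Schwann-like, 2 in the endothelial-like, 2 in the second endothelial-like and 1 in the ductal-like cluster. The counts over all 45 include members near 0, such as Fzd9 at 0.000798 and Wnt1 at 0.00145 at their highest. The share of all genes highest in each cluster was not computed, so nothing particular to the Wnt genes is read from these counts.

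**Figure D1:**
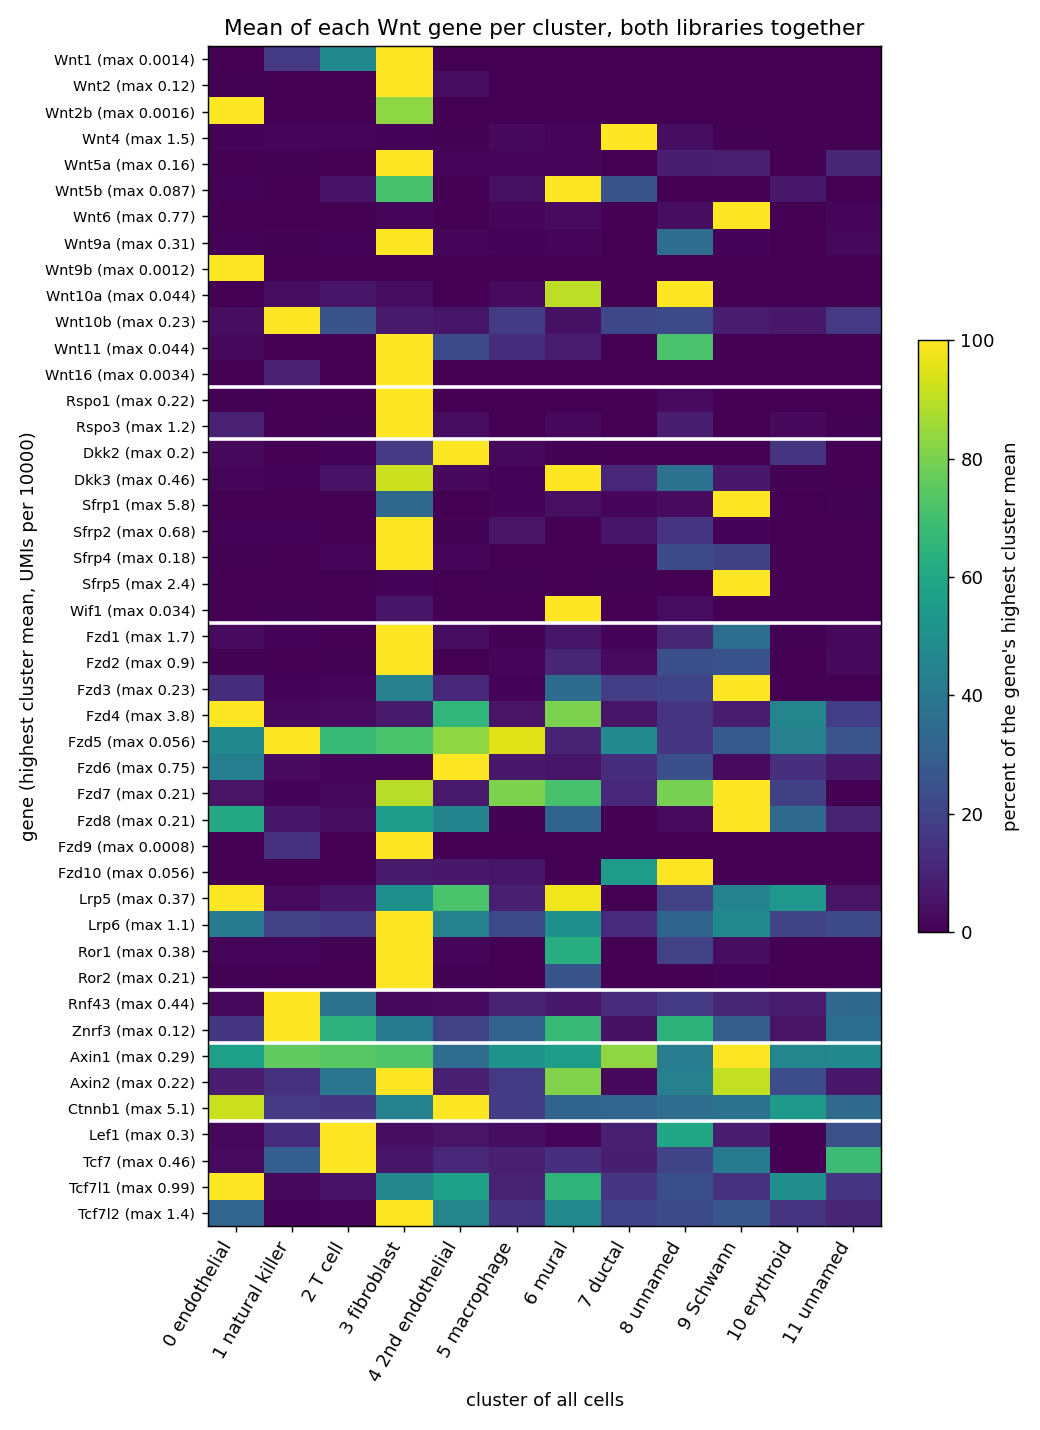
Heat map of where each Wnt gene was measured: rows are genes grouped by role, columns are the 12 clusters of all cells with both libraries together, and colour is the cluster mean scaled to the gene's highest cluster. The fibroblast-like column is the brightest for 18 of the 45 genes, and the Schwann-like column for 7.

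Several secreted genes were read almost entirely in 1 cluster. Weighting each cluster by its cells, the fibroblast-like cluster held 96.8% of the summed value of Rspo1 and 95.3% of that of Wnt2. It held 91.6% for Wnt5a, a ligand known for non-canonical signalling, 87.3% for Sfrp4, 86.3% for Sfrp2 and 69.9% for Rspo3. Among receptors it held 86.6% for Ror2, a receptor tyrosine kinase that binds Wnt5a, 82.0% for Fzd2 and 76.7% for Fzd1. These genes were therefore mostly read in fibroblast-like cells, which made up 10.1% of ligated and 4.48% of mock cells.

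Other cell types carried their own members. The endothelial-like cluster held 79.1% of the summed value of Fzd4, the Frizzled that Norrin and Wnt ligands use in vessels, and 73.2% of that of Tcf7l1, a mostly repressive Tcf factor. The ductal-like cluster held 70.7% for Wnt4, and the Schwann-like cluster held 91.2% for Sfrp5 and 79.3% for Wnt6. The natural killer-like cluster held 78.5% for Wnt10b and 79.3% for Rnf43. The T cell-like cluster held 60.3% for Lef1 and 44.5% for Tcf7, both factors of T cell development and memory.

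For 16 of the 20 members that reached 0.5 in some cluster of at least 1 library, the highest cluster was the same in both libraries. The exceptions were Axin1, Dkk3, Fzd1 and Lrp5. Dkk3 had its highest ligated value in the fibroblast-like cluster and its highest mock value in the mural-like cluster (cells of vessel walls). Lrp5 had its highest ligated value in the endothelial-like and its highest mock value in the mural-like cluster.

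Across all cells, 5 members passed the rule, each in 1 cluster and each lower in the ligated library. They were Rspo1, Rspo3 and Fzd4 in the fibroblast-like cluster, Dkk3 in the mural-like cluster and Tcf7 in the T cell-like cluster. No member was higher past the rule in any of the 9 clusters. In the fibroblast-like cluster, 11 members had a value high enough to pass, 3 of them were lower and 0 higher, and of the 3762 genes with such a value 5.32% were lower and 4.47% higher. In the mural-like cluster 1 of 7 was lower and 0 higher, against 4.5% and 4.92% of such genes. In the T cell-like cluster 1 of 3 was lower and 0 higher, against 2.27% and 3.08%. In the endothelial-like, natural killer-like, second endothelial-like, macrophage-like, ductal-like and erythroid-like clusters 0 of 4, 1, 6, 1, 2 and 3 members passed, where 6.6%, 4.56%, 6.1%, 8.48%, 26.5% and 25.2% of such genes did in either direction. Each count rests on 11 members or fewer, and nothing particular to the Wnt genes is read from it.

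**Figure D2:**
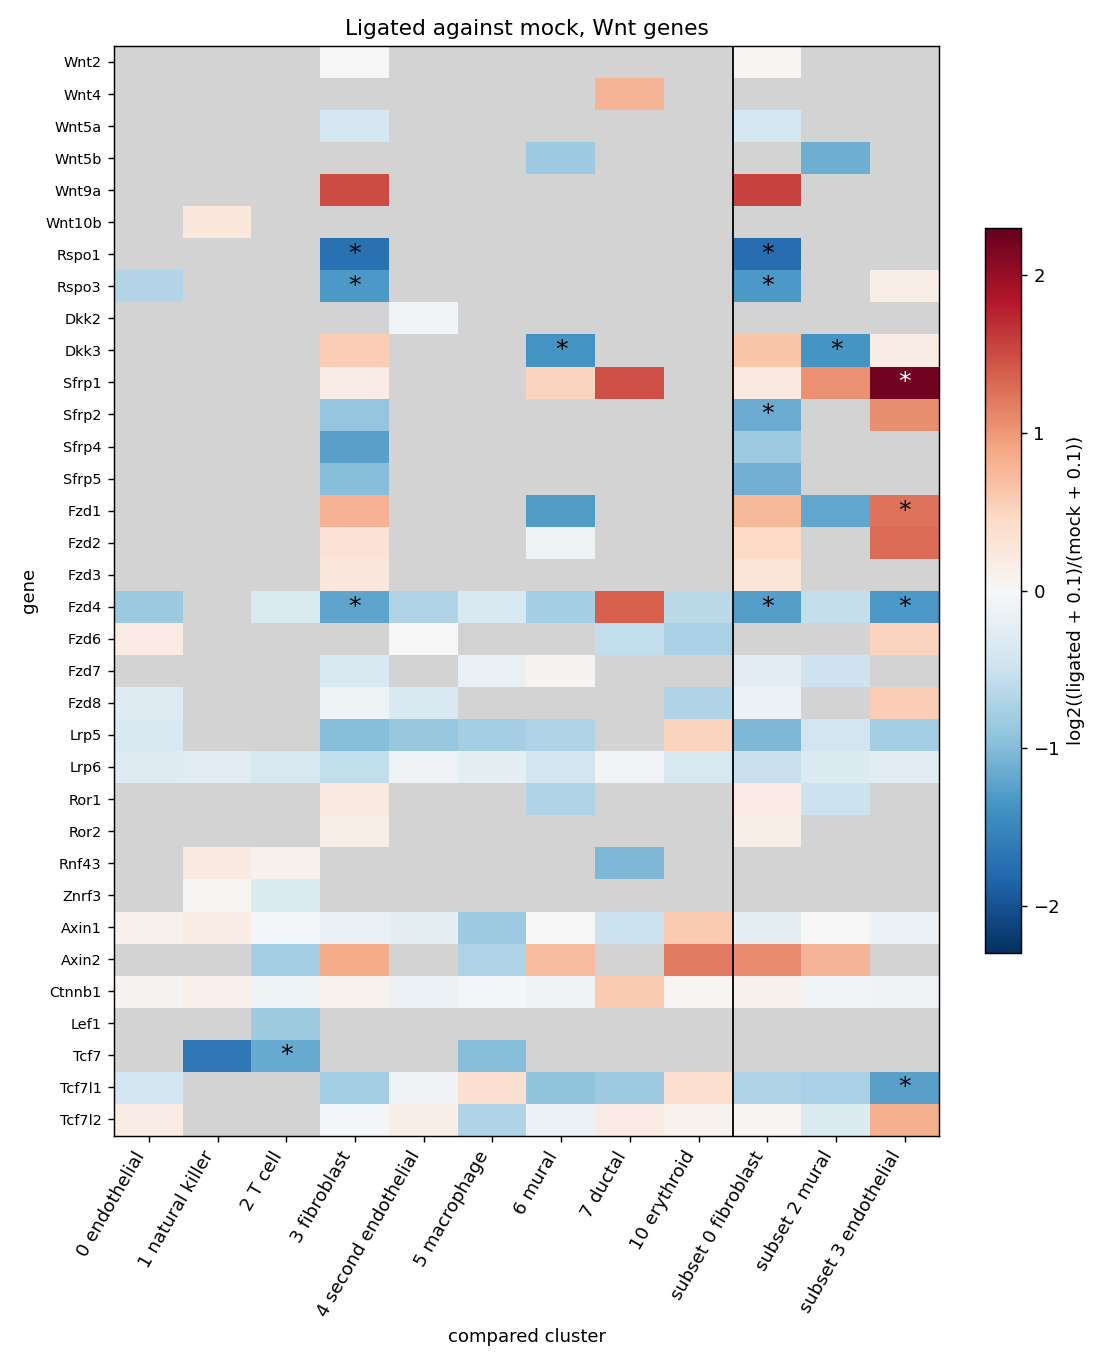
Heat map of the difference log2((ligated + 0.1)/(mock + 0.1)) for each Wnt gene (rows) in the compared clusters (columns, all cells left and subset right of the line). Grey marks pairs whose larger value is under 0.1 and an asterisk marks pairs past the rule; the 5 asterisks left of the line are all blue, for lower in the ligated library.

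Both R-spondins passed the rule in fibroblast-like cells, and both were lower in the ligated library. Rspo3 (chr10:29452416-29535867, minus strand) stood at 0.940 in ligated and 2.49 in mock fibroblast-like cells, a difference of -1.32. The mock value was 2.65 times the ligated one, and about 602 UMIs lay behind it in 188 mock cells. Rspo1 (chr4:124986430-125009099, plus strand) stood at 0.139 in ligated and 0.686 in mock fibroblast-like cells, a difference of -1.71. After subtraction of the share of other-type RNA, which took more from the ligated values, the differences were -1.33 for Rspo3 and -1.72 for Rspo1. In endothelial-like cells Rspo3 was also lower, 0.0625 in ligated and 0.159 in mock, too low in both libraries to pass the rule. Exons of another gene on the opposite strand overlap 10 members, Rspo3, Sfrp2, Axin2 and Tcf7l1 among them, and the strand setting of the counting is not given in the sources used here.

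The fibroblast-like cells of the subset come from the same 2 libraries and add no independent evidence. In subset cluster 0 (949 ligated and 167 mock cells) Rspo3 stood at 1.02 in ligated and 2.70 in mock, and Rspo1 at 0.159 in ligated and 0.769 in mock. There 4 of the 11 members with a value high enough were lower and 0 higher, where 5.31% of such genes were lower and 4.75% higher. The 4 were both R-spondins, Fzd4 and Sfrp2. Fibroblast markers themselves summed to 286 in ligated and 347.3 in mock cells of the fibroblast-like cluster of all cells, so the cluster's own markers were also somewhat lower in the ligated library.

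**Figure D3:**
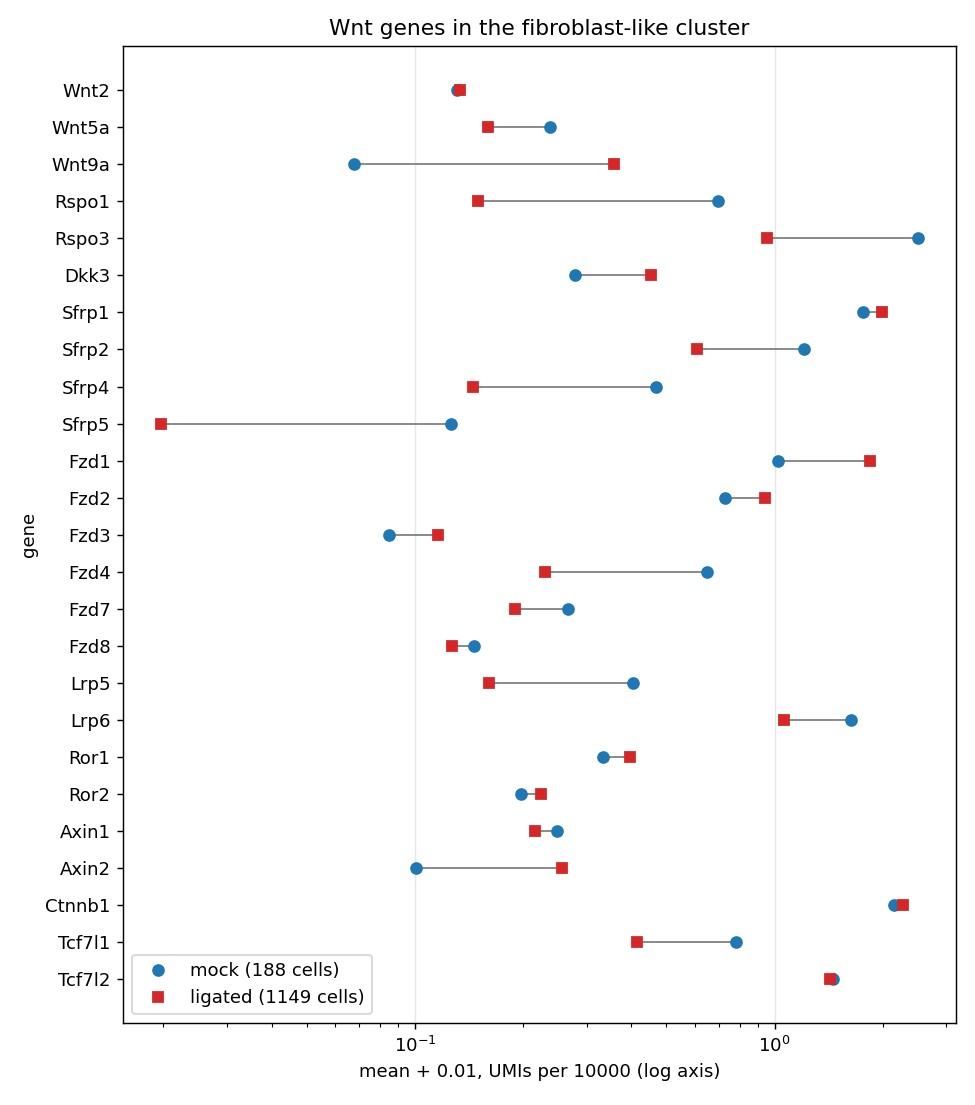
Values of the Wnt genes in the fibroblast-like cluster of all cells, 1 row per gene whose larger value is at least 0.1, with a blue circle for the mock library (188 cells), a red square for the ligated library (1149 cells) and the value plus 0.01 on a log axis. Rspo1 stands at 0.139 in ligated against 0.686 in mock cells, and Wnt9a at 0.347 against 0.0577.

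None of the 13 Wnt ligands passed the rule in a compared cluster, but nearly all were too low to pass it. In the compared clusters of all cells only Wnt4 reached 0.5, in ductal-like cells, where 26.5% of genes with such a value passed. The 0 is therefore not read as a result about the ligands. The fibroblast-like cluster held 3 ligands at or above 0.1 in at least 1 library. Wnt9a (chr11:59306928-59333552, plus strand), a ligand known from joint development, stood at 0.347 in ligated and 0.0577 in mock cells, a difference of 1.50 on values below the minimum. Only about 14.0 UMIs lay behind the mock value. Wnt2, a canonical ligand, stood at 0.123 in ligated and 0.121 in mock cells, and Wnt5a at 0.150 in ligated and 0.227 in mock cells. The ligands of this cluster summed to 0.756 in ligated and 0.680 in mock cells, so the sum hid opposite differences of its members.

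Other ligands were highest outside fibroblast-like cells. Wnt4 stood at 1.88 in ligated and 1.06 in mock ductal-like cells, a difference of 0.78, in a cluster where EpCAM depletion chose which cells remained. Ductal markers there summed to 974.4 in ligated and 374.9 in mock cells, and their part in the Wnt4 difference was not tested. Wnt10b stood at 0.239 in ligated and 0.186 in mock natural killer-like cells. Wnt5b stood at 0.0542 in ligated and 0.174 in mock mural-like cells. Wnt1 was listed at 0 in every cluster of the mock library and Wnt9b in every cluster of the ligated library, and Wnt2b, Wnt10a, Wnt11 and Wnt16 stayed under 0.1 in every cluster of both libraries together.

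Among secreted antagonists, Dkk3 in mural-like cells was the one past the rule in all cells. Dkk3 (chr7:112116017-112159057, minus strand), a divergent Dickkopf protein, stood at 0.287 in ligated and 0.897 in mock mural-like cells, a difference of -1.37. In fibroblast-like cells the order was the other way round, 0.445 in ligated and 0.269 in mock, a difference of 0.56 that did not reach the rule. The mural markers themselves summed to 137.1 in ligated and 220.3 in mock mural-like cells, and natural killer markers to 4.95 against 0.0801, with 5 of the 9 natural killer markers at 0 in the mock library. After subtraction Dkk3 differed by -1.42, and in subset cluster 2, also mural-like, it stood at 0.352 in ligated and 1.06 in mock, where 1 of 7 members was lower and 0 higher, against 4.26% of such genes in each direction.

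The Sfrp genes, secreted proteins that bind Wnt through a Frizzled-like domain, were lower in ligated fibroblast-like cells in 3 of 4 cases, none of them past the rule there. Sfrp1, the fourth, stood at 1.98 in ligated and 1.75 in mock. Sfrp2 (chr3:83766321-83774316, plus strand) stood at 0.599 in ligated and 1.19 in mock, a difference of -0.89, and in the subset it passed the rule at 0.386 against 0.968, a difference of -1.14. Sfrp4 stood at 0.135 in ligated and 0.457 in mock, a difference of -1.24 on values below the minimum, and Sfrp5 at 0.00969 and 0.116. Dkk2, a Dickkopf inhibitor of Lrp co-receptors, was level in second endothelial-like cells at 0.199 and 0.212. The antagonists of the fibroblast-like cluster summed to 3.20 in ligated and 3.84 in mock cells. Wif1 was listed at 0 in every cluster of the mock library.

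Fzd4 was measured in the endothelial-like, mural-like and erythroid-like clusters, and it was the 1 receptor past the rule in all cells. Fzd4 (chr7:89404355-89413134, plus strand) stood at 2.77 in ligated and 5.12 in mock endothelial-like cells, a difference of -0.86. In second endothelial-like cells the values were 2.11 and 3.45, in mural-like cells 2.55 and 4.41, and in erythroid-like cells 1.29 and 2.04, each lower in the ligated library without reaching the rule. Endothelial markers in the erythroid-like cells summed to 70.0 in ligated and 80.98 in mock, and in the endothelial-like cells to 144.0 and 177.3, and their part in these Fzd4 values was not tested. Of the 8 compared clusters where a value reached 0.1 it was lower in ligated in 7, the exception being the ductal-like cluster at 0.331 in ligated and 0.0657 in mock. The median recovered total in that cluster was 1032 UMIs in ligated and 1205 in mock cells, so this exception rests on shallow cells.

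Fibroblast-like cells were the 1 cluster of all cells where Fzd4 passed the rule, at 0.220 in ligated and 0.638 in mock. There Fzd4 was at 21.7% of its library mean in ligated and 19.1% in mock cells, above the 11.8% and 3.10% at which markers of other cell types stood. Subtracting that share took the difference from -1.20 to -1.66. Endothelial markers in those cells summed to 7.69 in ligated and 5.95 in mock, and Cldn5 was at 0 in the mock library. In subset cluster 0 the values were 0.196 and 0.612.

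**Figure D4:**
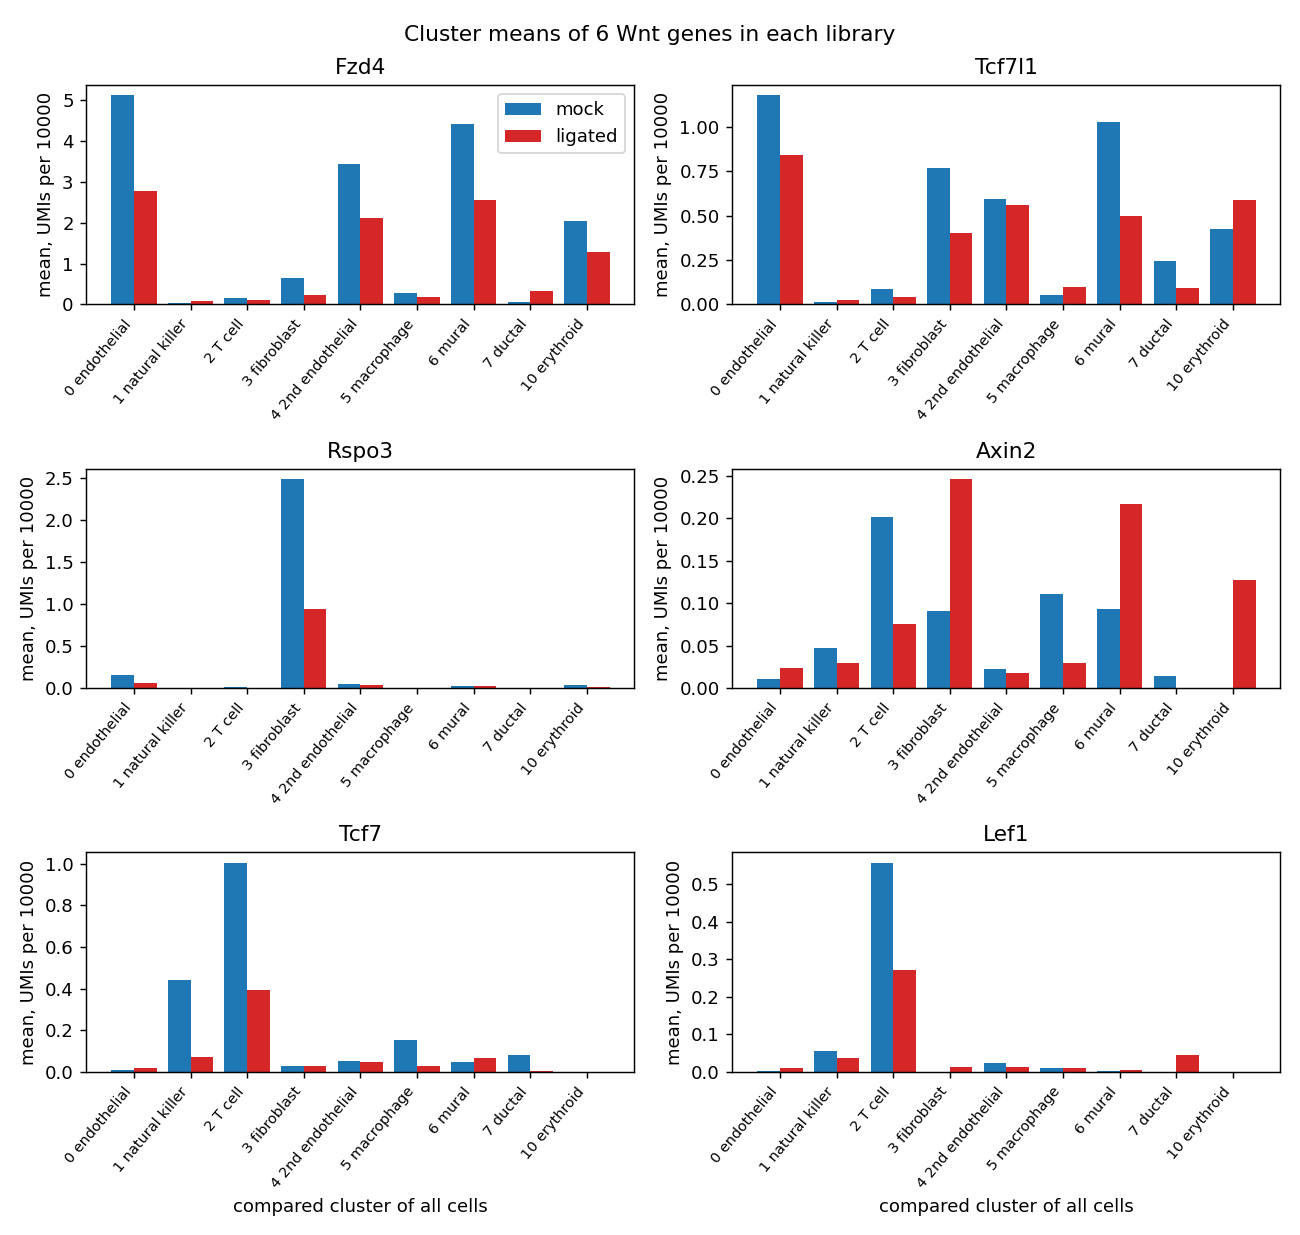
Bar charts of the cluster means of Fzd4, Tcf7l1, Rspo3, Axin2, Tcf7 and Lef1 in the compared clusters of all cells, with blue bars for the mock and red bars for the ligated library and the mean in UMIs per 10000 on the vertical axis. Fzd4 bars are lower in the ligated library in the endothelial-like, mural-like and fibroblast-like clusters, and Axin2 bars are higher in the fibroblast-like cluster at 0.246 against 0.0906.

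The other Frizzled genes of fibroblast-like cells did not reach the rule, and their differences had both signs. Fzd1 (chr5:4753839-4758035, minus strand) stood at 1.83 in ligated and 1.01 in mock, a difference of 0.79, and Fzd2 at 0.930 and 0.718, a difference of 0.33. In mural-like cells Fzd1 stood at 0.0468 in ligated and 0.259 in mock, a difference of -1.29 on low values. Fzd6, the Frizzled of planar polarity, was level in second endothelial-like cells at 0.758 and 0.748. Fzd7 stood at 0.180 in ligated and 0.256 in mock fibroblast-like cells, and Fzd3 at 0.106 and 0.0748. Fzd8 was lower in the ligated library in each of the 4 compared clusters where it reached 0.1, and Fzd5 stayed under 0.1 with both libraries together. In the mock library Fzd9 and Fzd10 were at 0 throughout.

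The co-receptors Lrp5 and Lrp6 were lower in the ligated library in most clusters, by amounts under the rule. Lrp6 stood at 1.05 in ligated and 1.62 in mock fibroblast-like cells, a difference of -0.57, and at 0.413 and 0.531 in endothelial-like cells. It was lower in the ligated library in all 9 compared clusters. Only 3 members had a value of at least 0.1 in all 9. The others were mixed, with Ctnnb1 higher in 5 and lower in 4, and Axin1 higher in 4 and lower in 5. Of the 5582 genes with a value of at least 0.1 in all 9, 2.6% were lower in all 9 and 8.53% were higher in all 9. Lrp5 was lower in 5 of the 6 clusters where it reached 0.1, at 0.151 in ligated and 0.394 in mock fibroblast-like cells and at 0.318 and 0.436 in endothelial-like cells.

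Receptors of the Ror type were nearly level in fibroblast-like cells. Ror1 stood at 0.387 in ligated and 0.324 in mock, and Ror2 at 0.215 and 0.188. The membrane ligases Rnf43 and Znrf3 were highest in natural killer-like cells, where Rnf43 stood at 0.451 in ligated and 0.375 in mock and Znrf3 at 0.122 and 0.117. None of these 4 genes passed the rule in a compared cluster, and the values given here were all under the 0.5 that it requires.

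Of the cytoplasmic members, beta-catenin itself was level in most clusters while the feedback gene Axin2 was not. Ctnnb1, which encodes beta-catenin, stood at 2.27 in ligated and 2.14 in mock fibroblast-like cells and at 4.81 and 4.58 in endothelial-like cells. A microRNA gene on the same strand overlaps its exons, and its counts are uncertain to that extent. Axin2 (chr11:108920349-108950783, plus strand), a destruction complex scaffold and a widely used target of canonical Wnt signalling, stood at 0.246 in ligated and 0.0906 in mock fibroblast-like cells, a difference of 0.86. In mural-like cells it stood at 0.216 and 0.0934, and in T cell-like cells the order was reversed, 0.0753 in ligated and 0.202 in mock. In the subset the fibroblast-like cells read 0.266 and 0.0721, a difference of 1.09. Every Axin2 value was under the 0.5 that the rule requires, and about 21.9 UMIs lay behind the mock value in fibroblast-like cells. Axin1, the constitutive scaffold, was level there at 0.206 and 0.238.

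Tcf7 passed the rule in T cell-like cells, and Lef1, the related factor of the same cells, did not. Tcf7 (chr11:52252371-52283014, minus strand), which encodes a factor of naive and memory T cells, stood at 0.396 in ligated and 1.00 in mock T cell-like cells, a difference of -1.16 as deposited and -1.18 after subtraction. Lef1 stood at 0.271 in ligated and 0.557 in mock T cell-like cells, a difference of -0.82. In natural killer-like cells Tcf7 stood at 0.0736 in ligated and 0.441 in mock, a difference of -1.64 on values under the minimum. Over the same cells T cell markers went the other way, summing to 43.7 in ligated and 33.1 in mock T cell-like cells and to 3.24 and 2.33 in natural killer-like cells, where Cd4 and Cd8a were at 0 in the mock library. Natural killer markers summed to 34.6 in ligated and 26.2 in mock T cell-like cells and to 48.8 and 51.2 in natural killer-like cells. The part of the make-up of these clusters in the Tcf7 and Lef1 values was not tested. The mock T cell-like cluster held 155 cells, with about 97.9 UMIs of Tcf7.

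The stromal factors Tcf7l1 and Tcf7l2 differed from each other. Tcf7l1 (chr6:72626378-72789254, minus strand) was lower in ligated cells at 0.405 against 0.771 in the fibroblast-like cluster, at 0.499 against 1.03 in the mural-like cluster and at 0.844 against 1.18 in the endothelial-like cluster. The differences were -0.79, -0.92 and -0.44, and none reached the rule. Tcf7l2, the Tcf factor of many epithelia and stroma, was level in fibroblast-like cells at 1.41 and 1.45.

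The endothelial-like cells of the subset (260 ligated and 82 mock cells) were the 1 compared cluster where members passed the rule in both directions. Of 8 members with a value high enough, 2 were higher, where 6.29% of such genes were, and 2 were lower, where 4.23% were. Fzd4 stood at 2.17 in ligated and 5.55 in mock, and Tcf7l1 at 0.612 and 1.60. Fzd1 stood at 0.535 in ligated and 0.169 in mock, and Sfrp1 at 0.509 and 0.0313, the mock value resting on about 2.41 UMIs. In these cells the fibroblast markers summed to 70.7 in ligated and 20.4 in mock, and the endothelial markers to 102.3 and 161.6. The genes higher in the ligated cells, Fzd1 and Sfrp1, were highest in fibroblast-like or Schwann-like cells of all cells, and the lower ones in endothelial-like cells. The part of this marker difference in the 4 results was not tested.

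Taken over each library as a whole, with its own mix of clusters, 2 members passed the rule, where 12.5% of genes with a high enough value did. Fzd4 stood at 1.02 in ligated and 3.34 in mock, a difference of -1.62, and Tcf7l1 at 0.338 and 0.799, a difference of -1.04. Endothelial-like cells were 25.8% of the ligated and 56.3% of the mock library. With both libraries at the mock library's mix the differences were -0.82 for Fzd4 and -0.43 for Tcf7l1, and with equal weight for every cluster -0.69 and -0.31. Ctnnb1 read -0.51 with each library's own mix and 0.06 at the mock mix.

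Across members with a mean of at least 0.05, the median difference in fibroblast-like cells was -0.15 over 28 members, with 11 above 0 and 17 below, beside -0.04 over all genes with such a mean. In mural-like cells it was -0.13 over 20 members beside -0.00, and in endothelial-like cells -0.30 over 11 members, 5 above 0 and 6 below, beside 0.05. In natural killer-like cells it was 0.12 over 9 members beside -0.00, and in the endothelial-like cells of the subset 0.17 over 17 members beside 0.03. The members' median lay below that of all genes in 10 of the 12 compared clusters and above it in those 2, a description without a test. The 12 include the 3 clusters of the subset, which come from the same 2 libraries and add no independent evidence.

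The other genes of the pathway were read from 7 lists of 72 genes, 71 of which are in the tables. In fibroblast-like cells 20 had a value high enough, 2 were higher and 2 lower, beside the 4.47% and 5.32% of all such genes given above. Nkd2, an inhibitor of Dishevelled, stood at 1.42 in ligated and 0.284 in mock, a difference of 1.98. Ccn4, a secreted matricellular protein first described as a Wnt1-induced gene, was listed in the ligated library alone at 1.06, and its older symbol Wisp1 in the mock library alone at 0.246. Read as 1 gene, the pair differed by 1.75. Ccn4 is among the 3844 genes listed at 0 throughout 1 library. Cd44, a hyaluronan receptor, stood at 0.305 and 0.728, a difference of -1.03, and Gpc3, a glypican that binds Wnt and was named after its values were seen, at 0.155 and 0.678.

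In endothelial-like cells 18 of these genes had a value high enough, 1 was higher and 1 lower, beside 6.6% of all such genes in either direction. Ccnd1, cyclin D1, stood at 1.75 in ligated and 4.45 in mock, a difference of -1.30, and it was also lower in second endothelial-like cells at 0.715 and 2.99 and in mural-like cells at 1.14 and 2.48. Igfbp4, a secreted binding protein also known as a Wnt antagonist, stood at 2.90 in ligated and 0.253 in mock endothelial-like cells, a difference of 3.09. In macrophage-like cells Igfbp4 differed by 1.73 as deposited and by -0.01 after subtraction. Wls, the carrier that Wnt ligands need for secretion, stood at 1.22 in ligated and 0.372 in mock ductal-like cells. Over the 9 clusters of all cells and the 3 of the subset, 13 of the 36 pathway genes with a value high enough somewhere passed the rule at least once. Of all 7062 such genes 32.2% did.

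Igfbp4 was also higher past the rule in second endothelial-like, ductal-like and erythroid-like cells, and Cd44 was lower in macrophage-like cells. Wls was also higher in erythroid-like cells, at 0.623 in ligated and 0.220 in mock. The other named pathway genes passed the rule in ductal-like, macrophage-like or subset endothelial-like cells. In ductal-like cells, where 26.5% of all genes with a high enough value passed, the kinase gene Gsk3b stood at 0.619 in ligated and 1.38 in mock, the co-repressor Tle1 at 0.195 and 0.558, and Dact2, a Dishevelled-binding inhibitor, at 0.322 and 0.919. In macrophage-like cells (680 ligated and 77 mock) 8.48% of all genes with a high enough value passed in either direction. Tnks, which marks Axin for removal, stood there at 0.195 in ligated and 0.567 in mock, and the co-repressor Ctbp2 at 0.264 and 0.656. In the endothelial-like cells of the subset Prickle1, a planar polarity gene, stood at 0.358 and 1.01. In natural killer-like cells none of the 10 pathway genes with a value high enough passed the rule, beside 4.56% of all such genes in either direction. In T cell-like cells none of 10 passed, beside 2.27% lower and 3.08% higher. Nothing is read from these counts.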

How the data were processed

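Droplet single-cell RNA libraries were made from 1 ligated and 1 mock sample. Per the submitters' processing notes, Cell Ranger 6.0.1, Seurat and build mm10 were used; cell filters, doublet removal, strand setting and clustering method are not given in the sources used here. The authors deposited 4 tables of cluster means, whose unit is other than counts or CPM: a linear mean per 10000 UMIs of the cell, read from the values, since each column sums to 10000. No counts per cell were used here, so no count model was fitted.

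Cell numbers per cluster and library came from the weight that joins the split means to the joint mean and from values of single UMIs, a procedure tested on simulated data. UMI numbers behind a value are approximate: value times cells times the median recovered UMI total. Dates had replaced 21 gene names, none a member, and 0 columns lacked a sample. Cluster names came from 16 lists of 122 markers, 121 of them measured. Doublets were not called.

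The pseudocount was 0.1. Members were named where the joint mean reached 0.5 or the size rule was passed; others were described as ranges, or by value where a paragraph on their role needed them. Other pathway genes past the rule were named, at most 12 by mean, and Gpc3 beyond that. The members, lists and rules were chosen with earlier results of these data known. Gene positions are from GENCODE M21 (GRCm38) and promoter windows from RefSeq. Python 3.11.15, numpy 2.4.6, pandas 2.3.3 and matplotlib 3.10.9 were used. Alternatives changed the pseudocount, both thresholds, the centring, the cell minimum, the cluster mix and the subtraction of other-type RNA.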

Additional observations from a re-analysis of the deposited data

Results flagged for a closer look

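Clusters with fewer than 50 cells in a library entered no comparison. In them 4 ligated values reached 0.5 and exceeded the mock value by at least 1 on the log2 scale used above. Only this direction is listed here, without the share of all genes. Values larger in mock cells occurred too. In the cycling and neutrophil cluster the cytoplasmic members summed to 1.02 in ligated and 4.35 in mock cells. The 59 ligated and 22 mock cells recovered for it are the smallest numbers its means allow, and a larger multiple is not excluded. The receptors and co-receptors summed there to 0.617 and 2.49. In the unnamed cluster led by acinar genes (264 ligated and 25 mock cells) ligated cells had Fzd4 at 0.627 while mock cells had it at 0, and Ctnnb1 stood at 1.99 against 0.0272. The median marker of other cell types stood there at 105.6% of its library mean in ligated and at 0% in mock cells. After that share of the library mean was subtracted, Fzd4 was at 0 in both libraries. Ctnnb1 was at 0 in ligated and 0.0272 in mock cells. Subtracting more than the library mean sets any gene at or below that mean to 0. Both ligated values lay below their library means of 1.02 and 2.33, so this outcome was fixed and nothing is read from it. In the second fibroblast-like cluster of the subset, led by Fn1, Pi16, Dpp4 and Sfrp2, Sfrp2 stood at 12.8 in ligated and 4.87 in mock, and Wnt2 at 1.36 and 0.422. Fibroblast markers there summed to 543.8 in ligated and 378.2 in mock cells. That cluster held 17 ligated and 10 mock cells, the smallest numbers its means allow.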

How the results depend on the processing

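Main counts past the rule were 5 in all cells, 9 in the subset and 2 in the library means. The counts in all cells and in the subset are of pairs of a member and a cluster. In the subset the pairs held 8 distinct members, since Fzd4 passed in both fibroblast-like and endothelial-like cells. With a pseudocount of 1 the counts were 0, 1 and 1. With a larger value of at least 2 they were 1, 2 and 1, and with a difference of at least 2 they were 0, 1 and 0. With no minimum they were 13 (4 higher and 9 lower) in all cells and 18 (7 higher and 11 lower) in the subset. With at least 20 cells per library the count in all cells was 11. With the mock mix or equal weights the library means gave 0. Members with the same highest cluster numbered 16 of 20, and 25 of 36 when a value of 0.1 sufficed. A pseudocount of 0.01 (7, 9 and 2), centring (6, 9 and 2), subtraction of other-type RNA (6 and 8) and leaving out genes listed in 1 library (5 and 9) stayed within 1.5 times. No direction reversed among the 14 single differences, but a change of pseudocount cannot reverse a sign. Centring moved a difference by at most 0.3851, less than the 1 that each reached in size. Subtraction could not weaken the members lower in all cells, as said above. Nothing is therefore read from the kept directions. With a pseudocount of 1, 13 of the 14 differences fell short of the rule. After subtraction 1 did, Sfrp1 in the endothelial-like cells of the subset, whose ligated value became 0.484. The mock side limits precision: several mock values rest on few UMIs. No paired analysis was possible because each condition has 1 library.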

Other observations

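The Schwann-like cluster (271 ligated and 17 mock cells) had too few mock cells to be compared. It was the highest cluster for 7 Wnt genes, 3 of them at 0.5 or more. Sfrp1, a secreted Wnt-binding protein, stood at 5.59 in ligated and 9.40 in mock cells. Sfrp5, of the same family, stood at 2.23 in ligated and 4.61 in mock, and the ligand Wnt6 at 0.732 and 1.39. Fzd1 stood at 0.592 and 1.03. About 74.2 UMIs lay behind the mock value of Sfrp1 and 36.4 behind that of Sfrp5. The cluster's own Schwann markers summed to 51.1 in ligated and 111.9 in mock cells and fibroblast markers to 15.3 and 28.4, and their part in these values was not tested. The antagonists of this cluster summed to 7.90 in ligated and 14.0 in mock cells.

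The second fibroblast-like cluster of the subset also carried Sfrp4, at 2.51 in ligated and 2.03 in mock cells, and Fzd2, at 1.00 and 0.948. Dkk2 stood there at 0.438 in ligated cells and was listed at 0 in mock cells.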
